A study of Mus musculus with 12 samples.

Results

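The variable (V) region genes of the immunoglobulin loci were described in splenic resting B cells of 8-week-old C57B6 mice and in the same cells after activation. Members were the genes of the count table whose mouse symbol is Ighv, Igkv or Iglv followed by a digit. There were 222 of 37991 genes: 116 heavy chain genes (Ighv), 103 kappa light chain genes (Igkv) and 3 lambda light chain genes (Iglv). Of these, 140 carried such a symbol in the annotation, and 82, of which 79 were Ighv, had a provisional name there that RefSeq lists as a synonym of 1 Ighv or Igkv gene on the same chromosome.

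The groups were Cre-only B cells (CD23-iCre, Runx1 intact) and Runx1 c-k/o B cells (CD23-iCre with Runx1 fl/fl alleles that lose exon 4), each at rest (0 h) and 3 h after addition of anti-IgM and IL-4, and each group holds 3 biological replicates. Both genotypes carried the same Cre transgene, which is driven by the CD23 promoter and expressed from the transitional B cell stage on. V(D)J joining mostly precedes that stage, and neither joining nor the time of deletion was measured here. Cells had been isolated by depletion of other cell types and of CD43+ B cells, a step that also removes most B-1 cells and plasma cells. RNA was measured by poly(A) RNA sequencing, and libraries held 14442251 to 23641552 counts.

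An expressed antibody V region is made by joining 1 V segment to a J segment, with a D segment between them in the heavy chain. A recombination signal next to each segment, made of a heptamer, a spacer and a nonamer, directs the cut. Joining places the V promoter, which usually carries an octamer bound by OCT factors, under the enhancers of the locus, and since each B cell expresses 1 heavy and 1 light chain, V gene levels in bulk RNA add up the clones of the sample.

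V gene counts made up 0.334% ± 0.00863 (SD, n = 3) of the library in Cre-only cells at rest and 0.104% ± 0.00867 at 3 h. In Runx1 c-k/o cells they made up 0.382% ± 0.0387 at rest and 0.111% ± 0.0265 at 3 h. In bulk samples, fewer cells of a type and less RNA per cell cannot be told apart.

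A filter on low counts kept 187 of the 222 genes for testing (92 Ighv, 92 Igkv and 3 Iglv). Of the 35 others, 6 had no count in any library and 29 had 78 counts or fewer over all 12 libraries. Levels are given as normalized CPM (read counts scaled to a common library size). Many V genes resemble each other: in the median member 18.7% of all 50-base windows also occurred in another V gene, and in 21 genes over 50% did. How reads that fit several genes were counted is not given in the sources used here, so values of single genes in these families are uncertain, and reads over the junctions or over mutated positions may not have aligned.

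The octamer, ATGCAAAT or its reverse complement ATTTGCAT, was searched on both strands from 250 bases before to 50 bases after each gene start in the mm9 genome. It occurred in 68.9% of the 222 V genes (75.9% of Ighv, 60.2% of Igkv and 3 of 3 Iglv) and in 2.28% of 37168 genes of the annotation. A letter match is a description of the window and does not show binding. The octamers of 5 genes named in the results below are shown in capitals, 5′ to 3′ on the strand of the gene, each with 20 bases on either side:
Ighv11-2 (minus strand, chr12:115286996-115287043): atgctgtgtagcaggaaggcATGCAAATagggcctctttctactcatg
Ighv7-1 (minus strand, chr12:115135247-115135294): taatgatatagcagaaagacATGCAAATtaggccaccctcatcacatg
Ighv1-50 (minus strand, chr12:116358473-116358520): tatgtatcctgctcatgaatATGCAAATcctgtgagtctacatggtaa
Igkv14-126 (plus strand, chr6:67846060-67846107): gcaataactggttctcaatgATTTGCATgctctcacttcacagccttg
Igkv15-103 (plus strand, chr6:68387343-68387390): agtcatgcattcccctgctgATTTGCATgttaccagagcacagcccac
The octamer stood in opposite orientation in the heavy and the kappa genes shown here, 83 to 109 bases before the annotated gene start. No octamer was found in the window of Ighv2-9, Ighv1-26, Igkv1-110 or Igkv7-33. The letters TGTGGT (or ACCACA), part of the motif that RUNX proteins bind, occurred in 14.7% of Ighv, 30.1% of Igkv and 0 of 3 Iglv windows, in 21.6% of all V gene windows and in 17.1% of the windows of all genes.

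Recombination signals were read from the same genome, with a 12-base spacer for Igkv and a 23-base spacer for Ighv and Iglv. The heptamer was CACAGTG, its most common form, in 164 of 222 genes. The signals of genes that the results below turn on are shown with heptamer and nonamer in capitals and the spacer in lower case:
Ighv11-2 (minus strand, chr12:115286413-115286451): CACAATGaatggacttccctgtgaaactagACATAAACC
Ighv7-1 (minus strand, chr12:115134580-115134618): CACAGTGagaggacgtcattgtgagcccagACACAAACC
Ighv1-14 (minus strand, chr12:115884744-115884782): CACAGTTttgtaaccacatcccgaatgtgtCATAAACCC
Ighv2-9 (minus strand, chr12:115117268-115117306): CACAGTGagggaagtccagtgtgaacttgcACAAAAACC
Igkv14-126 (plus strand, chr6:67846637-67846664): CACGTTGatacaagtaataACATAAACC
Igkv7-33 (minus strand, chr6:70008598-70008625): CACAGTGcttcagcctcctACACAAACC
Igkv1-135 (plus strand, chr6:67560503-67560530): CACAGTGattcagacccgaACAAAAACT
Igkv1-110 (plus strand, chr6:68221262-68221289): CACAGTGatacagaccctaACAAAAATA
Of the genes with the CACAGTG heptamer, 147 of 164 passed the filter on low counts, against 40 of the other 58. Among these 58 is Ighv8-8, in which no signal was found near the annotated gene end. The 58 are thus not all genes with a variant heptamer. The median level per length was 18.8 CPM per kb in the 164 genes, against 5.34 CPM per kb in the other 58. The heptamers of Ighv11-2, Igkv14-126 and Ighv1-14 departed from the common form. Since the spacer length was fixed, the last capitals of Ighv1-14 may miss its nonamer. The stretch that starts a base earlier is closer to the ACAAAAACC of Ighv2-9. All 3 Iglv genes lacked the common heptamer and had levels between 105 and 286 CPM per kb.

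The heavy chain repertoire was led by Ighv1-26, which held 6.86% of Ighv counts as the mean of the 12 samples, followed by Ighv3-6 with 4.30%, Ighv9-3 with 4.15%, Ighv6-3 with 3.10% and Ighv1-9 with 2.85%. No Ighv gene dominated. The kappa repertoire was led by Igkv1-135 with 9.47% of Igkv counts, Igkv1-117 with 6.34%, Gm16637 with 4.37%, Igkv1-110 with 3.78% and Igkv6-15 with 3.44%. Gm16637 is the annotation's name for a gene of the Igkv10 family. Of the lambda counts, Iglv1 held 53.0%, Iglv3 27.0% and Iglv2 20.0%. Iglv1 and Iglv2 were identical in the octamer window and in the recombination signal and each had 19.2% of its 50-base windows in another V gene, so reads from them could be split by the counting.

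Usage was spread over many genes, as shown by the effective number of genes (the exponential of the Shannon entropy of the shares within a locus). For Ighv it was 60.3 ± 0.594 (SD, n = 3) in Cre-only cells at rest and 62.7 ± 0.296 in Runx1 c-k/o cells at rest. At 3 h it was 59.9 ± 0.468 and 60.1 ± 1.04. The groups did not overlap at rest (two-sided exact permutation test, p = 0.1, the smallest p that 3 against 3 samples allow) and overlapped at 3 h.

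Relative to the other RNA of the library, V gene RNA of all 3 loci was lower at 3 h than at rest in both genotypes. Normalized CPM are shares of a library, so a change per cell was not measured here. In Cre-only cells 180 of 187 tested V genes were lower at 3 h than at rest and 0 were higher, against 36.4% lower and 38.6% higher of 13538 genes tested (edgeR's quasi-likelihood test, adjusted p under 0.05). In Runx1 c-k/o cells 182 were lower and 0 higher, against 36.6% and 37.7% of all genes. The fall was called in both genotypes for 178 genes. DESeq2 also called 0 V genes higher in either genotype.

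The median log2 fold change of V genes was -1.70 in Cre-only cells and -1.81 in Runx1 c-k/o cells, where the median of all tested genes was 0.03 and 0.00. By locus the median in Cre-only cells was -1.61 for Ighv, -1.75 for Igkv and -1.38 for Iglv. In Runx1 c-k/o cells it was -1.79, -1.83 and -1.66. All 187 fitted values were negative in each genotype.

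The summed heavy chain level in Cre-only cells was 1230, 1210 and 1126 CPM at rest and 400, 362 and 411 CPM at 3 h. The summed kappa level went from 1712, 1732 and 1667 CPM to 530, 555 and 667 CPM. The summed lambda level went from 287, 263 and 268 CPM to 101, 85.0 and 93.1 CPM. In each locus every activated sample lay below every resting one.

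In Runx1 c-k/o cells the summed heavy chain level was 1044, 1153 and 1181 CPM at rest and 215, 428 and 350 CPM at 3 h. The kappa level went from 1946, 2665 and 2215 CPM to 667, 839 and 711 CPM. The lambda level went from 259, 359 and 348 CPM to 70.4, 109 and 94.3 CPM. Again no sample overlapped across time, and each of these 6 falls gave an exact two-sided permutation p = 0.1, the smallest possible. Replicate 1 of Runx1 c-k/o at 3 h had the lowest level of its group in each locus.

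**Figure D1:**
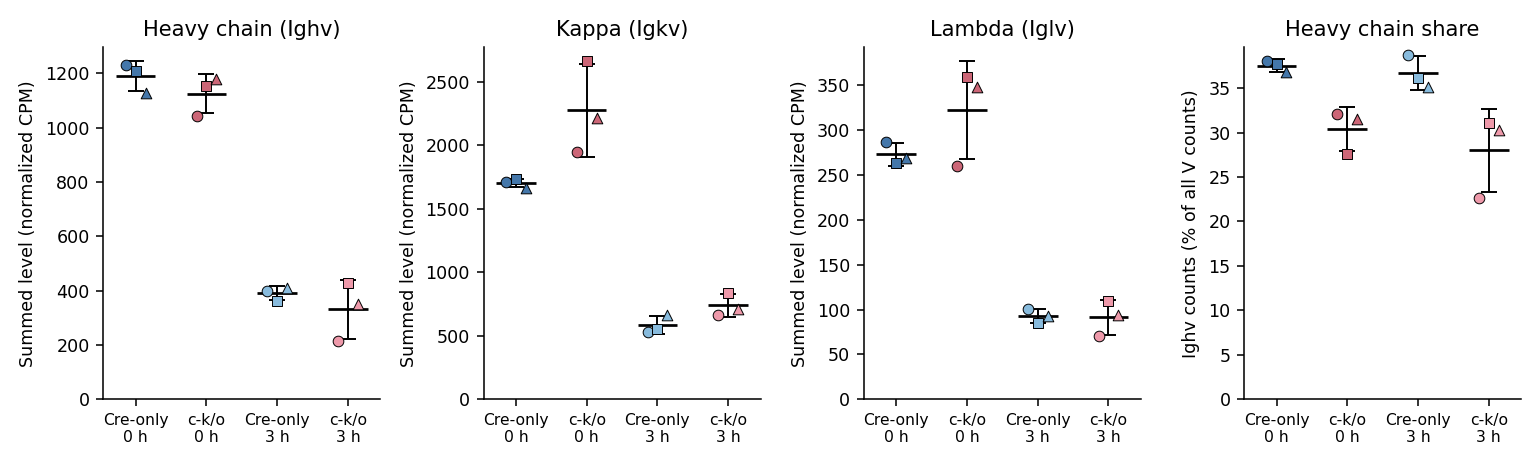
Summed V gene level of each locus in normalized CPM, and the heavy chain share of all V gene counts in percent, for each of the 12 samples (circle, square and triangle for replicates 1, 2 and 3; bars are mean and SD, n = 3). All 3 loci were lower at 3 h, and the heavy chain share of Runx1 c-k/o samples (22.6% to 32.1%) lay below that of Cre-only samples (35.1% to 38.8%).

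Constant region genes fell as well. Ighm, which encodes the mu heavy chain, changed by -1.48 on the log2 scale in Cre-only cells and by -1.52 in Runx1 c-k/o cells. Igkc, the kappa constant gene, changed by -1.66 and -1.61. Iglc2 and Iglc3, the lambda constant genes, fell further, Iglc2 by 2.13 and 2.26 and Iglc3 by 2.78 and 2.90 on the log2 scale, and all of these passed the edgeR threshold. All 9 matched J segments also fell in both genotypes, and Ighg1, the IgG1 constant gene, rose by 1.56 and 3.21 on the log2 scale from at most 4.21 CPM at rest. Ighg2c, the IgG2c constant gene, passed the test in no comparison and Ighe was at 0 in all libraries, and the other 6 constant genes listed were not analysed here.

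Set against the constant region, kappa V counts overlapped between the times: there were 66.9 ± 0.684 Igkv counts per 100 Igkc counts in Cre-only cells at rest and 72.5 ± 4.93 at 3 h (exact permutation p = 0.2). The lambda ratio rose from 33.5 ± 2.05 to 57.8 ± 2.24 Iglv counts per 100 constant region counts in Cre-only cells and from 32.4 ± 1.68 to 51.2 ± 11.9 in Runx1 c-k/o cells. The lambda ratios did not overlap across time in either genotype (exact permutation p = 0.1). Their denominator was Iglc2 and Iglc3 alone, since Iglc1 and Iglc4 were not analysed here, while Iglv1 held most lambda V counts.

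The 3 lambda genes did not fall to the same extent. Iglv3 fell from 96.5, 98.6 and 91.2 CPM to 22.5, 21.8 and 21.0 CPM in Cre-only cells. Iglv1 fell from 137, 126 and 134 CPM to 56.4, 44.0 and 51.9 CPM. The log2 change in Cre-only cells was -2.13 (SE 0.15) for Iglv3, -1.38 (SE 0.18) for Iglv1 and -1.14 (SE 0.22) for Iglv2, and the share of Iglv3 in lambda V counts went from 35.0% ± 2.14 to 23.5% ± 1.84 in Cre-only cells and from 30.9% ± 4.91 to 18.7% ± 1.34 in Runx1 c-k/o cells.

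The smallest adjusted p-values on activation belonged to genes with low spread. Igkv12-46 went from 27.0, 25.8 and 27.4 CPM at rest to 7.98, 7.64 and 8.47 CPM at 3 h in Cre-only cells, a log2 change of -1.73 (SE 0.09, edgeR adjusted p = 1.89e-08). Igkv6-23 changed by -2.28 in Cre-only cells and by -2.20 in Runx1 c-k/o cells, Igkv17-127 by -1.90 in both, and Ighv1-50 by -1.73 and -2.20. Igkv1-135, the most used kappa gene, fell least of all V genes in Cre-only cells: it went from 109, 100 and 102 CPM to 76.3, 74.1 and 79.6 CPM. Its log2 change was -0.43 (SE 0.11, edgeR adjusted p = 0.00276) in Cre-only cells and -0.71 (SE 0.11, edgeR adjusted p = 6.64e-05) in Runx1 c-k/o cells.

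Kappa usage thereby became more concentrated at 3 h. The share of Igkv1-135 in kappa counts went from 6.08% ± 0.289 to 13.2% ± 1.23 in Cre-only cells and from 6.40% ± 0.246 to 12.1% ± 1.93 in Runx1 c-k/o cells. The effective number of Igkv genes went from 56.6 ± 0.422 to 47.0 ± 0.199 in Cre-only cells and from 55.3 ± 0.348 to 46.2 ± 1.47 in Runx1 c-k/o cells, with no overlap across time in either genotype (exact permutation p = 0.1). The 5 most abundant Igkv genes of each sample held 23.6% to 24.1% of kappa counts in resting and 31.0% to 32.1% in activated Cre-only cells. The effective number of heavy chain genes changed by -0.33 in Cre-only cells, with overlap (exact permutation p = 0.5), and by -2.61 in Runx1 c-k/o cells, from 62.7 ± 0.296 to 60.1 ± 1.04 without overlap (exact permutation p = 0.1). Ighv counts were fewer at 3 h. With counts thinned to the smallest locus total, the Runx1 c-k/o values were 61.8 ± 0.944 at rest and 59.7 ± 1.13 at 3 h, and they overlapped.

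**Figure D2:**
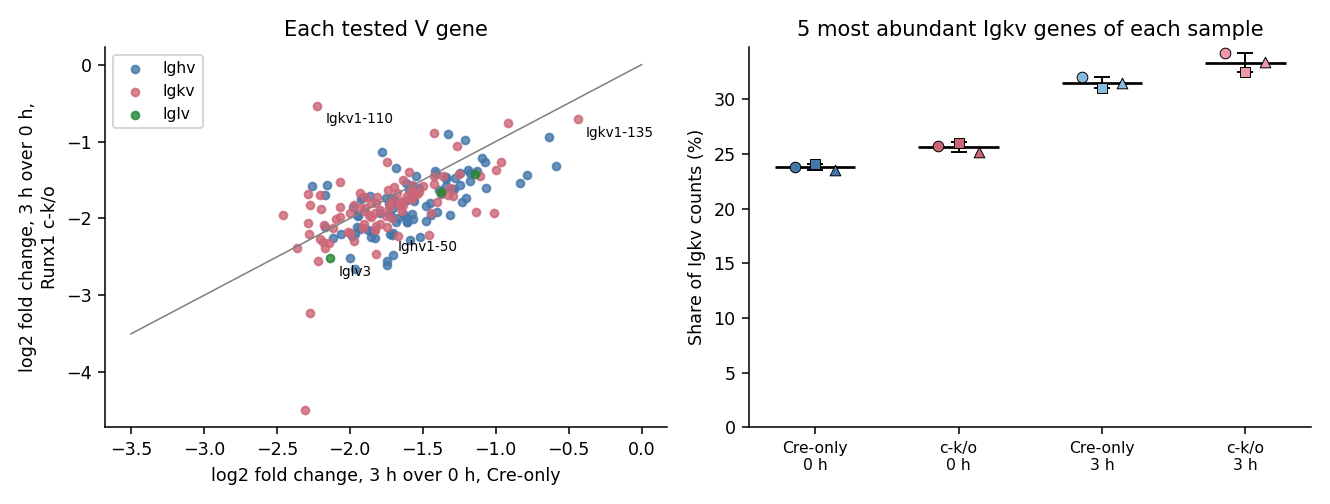
Left: log2 fold change of each of 187 tested V genes at 3 h over 0 h, in Cre-only cells (x) and in Runx1 c-k/o cells (y), with the line of equal change. Every gene lay below 0 on both axes, Igkv1-135 fell least in Cre-only cells and Igkv1-110 lay farthest above the line. Right: share of kappa counts in percent held by the 5 most abundant Igkv genes of each sample (mean and SD, n = 3).

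A few genes did not pass the test of a fall in the fit without a replicate block. In Cre-only cells these were Ighv1-14, Ighv1-31, Ighv1-37, Ighv2-4, Ighv7-1, Ighv11-2 and Igkv7-33. In Runx1 c-k/o cells they were Ighv7-1, Ighv11-2, Igkv1-110, Igkv4-56 and Igkv7-33. Ighv7-1, Ighv11-2 and Igkv7-33 are on both lists, named here after their values were seen, and all 3 had a large spread between replicates at each time, described below. They were lower at 3 h in all 3 same-numbered pairs of each genotype. With a replicate block, all 3 passed in Cre-only cells, where same-numbered samples pair (edgeR adjusted p = 0.000222 for Ighv7-1, 0.0283 for Ighv11-2 and 0.0161 for Igkv7-33), and the other 4 genes did not.

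Between genotypes at rest, kappa V genes were higher in Runx1 c-k/o cells as a group while few genes passed the test singly. Of 187 V genes, the test called 3 higher in Runx1 c-k/o cells and 3 lower, against 0.731% higher and 0.761% lower of all 13538 genes. Of 92 Igkv genes, 85 had a positive fold change, with a median of 0.39 on the log2 scale, where the median of all tested genes was 0.03. All Runx1 c-k/o values exceeded all Cre-only values in 50 of 92 Igkv genes and lay below them in 0, against 12% above and 11.6% below among all genes. These genes were measured in the same samples and are not independent of each other. For Ighv the median was -0.09, with 21 genes above and 33 below. The higher calls numbered 1, Ighv1-14, without any one of the 3 Cre-only libraries at rest or replicate 3 of Runx1 c-k/o. They numbered 5 without replicate 1 of Runx1 c-k/o. The lower calls numbered 1 without replicate 1 or 2 of Cre-only or replicate 3 of Runx1 c-k/o.

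The summed kappa level at rest was 1.32-fold higher in Runx1 c-k/o cells, with no overlap between genotypes (exact two-sided permutation p = 0.1). The Igkc level itself was 2575, 2604 and 2462 CPM in Cre-only cells and 2962, 4415 and 3343 CPM in Runx1 c-k/o cells (log2 fold change 0.49, edgeR adjusted p = 0.186), also without overlap. Per 100 Igkc counts, the kappa V counts were 64.1 ± 3.26 in Runx1 c-k/o and 66.9 ± 0.684 in Cre-only cells, so the direction of the kappa difference turned when set against the constant gene. The summed heavy chain level overlapped between genotypes (log2 difference -0.08, exact permutation p = 0.3), and the lambda level likewise overlapped (0.23, p = 0.4 in the exact permutation test).

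The balance of heavy to kappa counts differed between genotypes at both times. Heavy chain genes held 38.1%, 37.8% and 36.8% of V counts in resting Cre-only cells, while the resting Runx1 c-k/o samples had 32.1%, 27.6% and 31.5%. At 3 h the Cre-only values were 38.8%, 36.1% and 35.1%, and those of Runx1 c-k/o cells were 22.6%, 31.1% and 30.3%. The genotypes did not overlap at either time (exact permutation p = 0.1 each, the smallest p that 3 against 3 samples allow). With 14792 to 67020 V counts in each library, counting error of such a share was small against the spread between replicates.

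Per 100 counts of the matched heavy chain constant genes, which were nearly all Ighm, there were 16.5 ± 0.251 Ighv counts in resting Cre-only cells, against 13.5 ± 1.14 with Runx1 deleted. At 3 h there were 15.1 ± 0.695 and 11.1 ± 2.17. Neither pair overlapped (exact permutation p = 0.1 each).

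At 3 h, 14 V genes were lower in Runx1 c-k/o cells and 4 were higher, against 1.30% lower and 1.47% higher of all genes. The 4 higher ones again include Ighv1-14, whose call is no support for a difference. All 14 were heavy chain genes: 12 belonged to Ighv1, of which 45 genes were tested, and the others were Ighv8-8 and Ighv15-2. The median over Ighv was -0.33 and over Igkv 0.29, where that of all genes was 0.01. The groups did not overlap for 25 Ighv genes lower and 3 higher and for 17 Igkv genes higher and 1 lower, against 12.3% lower and 9.5% higher of all genes. The number of lower calls was 3, 6 and 4 without replicate 1, 2 or 3 of Cre-only at 3 h and 6 without replicate 1 of Runx1 c-k/o at 3 h, and 8 with a replicate block. The number of higher calls was 2 without replicate 1 of Cre-only at 3 h and 8 without replicate 1 of Runx1 c-k/o at 3 h.

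Ighv1-14 differed most in size. This gene (chr12:115884783-115885076, minus strand) had 2, 4 and 5 counts in resting Cre-only cells, while the resting Runx1 c-k/o samples had 50, 73 and 108 counts. At 3 h it had 2, 3 and 1 counts with Runx1 intact, and the Runx1 c-k/o samples had 14, 32 and 35. The pooled count rate was 24 times as high in Runx1 c-k/o cells at rest (exact 95% interval 13.2 to 48.8, counting error only) and 15.3 times as high at 3 h (6.74 to 43.0). It passed the filter on low counts only through the Runx1 c-k/o samples, so its presence among the genes tested already required a difference, and the filter of 10 counts in every sample removed it. In the edgeR fit the adjusted p was 0.000757 at rest and 0.00539 at 3 h, values that for this reason do not serve as support. The fitted change is uncertain in size because the Cre-only counts were near the detection floor of 3 counts. Of the gene's sequence, 15.1% of 50-base windows also occurred in another V gene.

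Ighv2-9 (chr12:115117307-115117740, minus strand) was likewise higher at both times. It was at 5.45, 5.81 and 5.64 CPM in resting Cre-only cells and at 11.5, 19.5 and 24.1 CPM in resting Runx1 c-k/o cells. At 3 h it was at 1.86, 2.03 and 1.34 CPM and at 3.93, 9.06 and 8.66 CPM. The samples of the genotypes did not overlap, and the log2 fold change was 1.70 (SE 0.30, edgeR adjusted p = 0.0150) at rest and 2.04 (SE 0.36, edgeR adjusted p = 0.00834) at 3 h. At rest the call was lost without replicate 1, 2 or 3 of Cre-only or replicate 3 of Runx1 c-k/o, with an adjusted p of up to 0.0869.

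Ighv1-50 (chr12:116357959-116358391, minus strand) was lower at both times, with little spread. Its level was 14.6, 13.0 and 12.6 CPM in resting Cre-only cells and 8.43, 8.01 and 7.57 CPM in resting Runx1 c-k/o cells. At 3 h it was 4.01, 4.12 and 4.01 CPM against 1.74, 1.77 and 1.71 CPM. The log2 fold change was -0.74 (SE 0.11, edgeR adjusted p = 0.00469) at rest and -1.22 (SE 0.14, edgeR adjusted p = 0.000414) at 3 h, and both calls held under all 14 alternatives. Much of its sequence is not unique to it: 54.2% of its 50-base windows occurred in another V gene.

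Ighv8-8 (chr12:116532289-116532709, minus strand) was at 33.3, 39.6 and 31.1 CPM in resting Cre-only cells and at 21.6, 17.3 and 18 CPM in resting Runx1 c-k/o cells. On the log2 scale this was a difference of -0.87 (SE 0.15, edgeR adjusted p = 0.0150) at rest, lost without replicate 1 or 2 of Cre-only or replicate 3 of Runx1 c-k/o (adjusted p up to 0.0919). At 3 h it was -1.09 (SE 0.18, edgeR adjusted p = 0.00529), lost in a fit of only the groups compared (adjusted p = 0.0581). Ighv1-26, the most used heavy chain gene, was at 32.0, 28.2 and 29.8 CPM in activated Cre-only cells and at 14.1, 22.7 and 17.7 CPM in activated Runx1 c-k/o cells (log2 fold change -0.72, edgeR adjusted p = 0.0183), a call lost without replicate 1 or 3 of Cre-only and in a fit of only the groups compared (adjusted p = 0.168). At 3 h Ighv1-39 fell by 0.94 and Ighv1-85 fell by 1.03 on the log2 scale relative to Cre-only cells, the latter call lost without replicate 1 or 3 of Cre-only or 1 or 2 of Runx1 c-k/o and in a fit of only the groups compared (edgeR adjusted p = 0.120). Among these heavy chain genes the genotypes did not overlap at 3 h.

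2 calls at rest lay close to the threshold. Igkv1-135 was at 123, 165 and 148 CPM in Runx1 c-k/o cells against 109, 100 and 102 CPM in Cre-only cells (log2 fold change 0.49, edgeR adjusted p = 0.0461). Ighv9-1 was at 4.04, 3.68 and 4.45 CPM against 6.46, 7.17 and 6.94 CPM (log2 fold change -0.76, edgeR adjusted p = 0.0499). Each lost the call under 8 of 14 alternatives.

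In the kappa locus 2 genes were called at 3 h. Igkv1-110 (chr6:68220521-68221261, plus strand) was at 83.5, 81.1 and 45.0 CPM in resting Cre-only cells and at 46.9, 71.9 and 64.0 CPM in resting Runx1 c-k/o cells, which overlap. At 3 h it was at 13.4, 13.98 and 17.6 CPM in Cre-only and at 41.8, 31.2 and 53.2 CPM in Runx1 c-k/o cells, which do not (log2 fold change 1.49, SE 0.26, edgeR adjusted p = 0.00914). The fall on activation was -2.22 on the log2 scale in Cre-only cells (edgeR adjusted p = 8.43e-06) and -0.53 in Runx1 c-k/o cells (edgeR adjusted p = 0.0713), and the difference between these, 1.69, did not pass the interaction test (edgeR adjusted p = 0.192). It passed in 1 of 19 alternatives, DESeq2. The 3 h call was lost without replicate 1 or 2 of Cre-only at 3 h (adjusted p up to 0.0645). Igkv4-63 was at 1.04, 0.91 and 0.89 CPM in activated Cre-only and at 1.67, 2.43 and 1.94 CPM in activated Runx1 c-k/o cells (log2 fold change 1.07, edgeR adjusted p = 0.0230), a call lost without any one of the 3 activated Cre-only libraries or replicate 2 of Runx1 c-k/o and in a fit of only the groups compared (adjusted p = 0.127).

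In the test of the genotype by time interaction 0 V genes were called higher and 0 lower by edgeR, against 0.0665% and 0.0148% of all genes. At an unadjusted p under 0.05 there were 9 of 187, and DESeq2 called 1. The median interaction was -0.17 over V genes and -0.04 over all tested genes.

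The genotype difference in the heavy chain locus varied with position. Ighv genes were ranked from the D and J segments outwards and split into blocks of 39, 39 and 38 genes, a description chosen after earlier results were known and given without a test. The 39 proximal genes, which lie at chr12:114812453-115501161, held 26% to 29.6% of heavy chain counts in resting Cre-only cells, while the resting Runx1 c-k/o samples had 30.9% to 36.1%. The 38 distal genes, at chr12:116357959-117238672, held 31.3% to 33.0% against 24.2% to 27.5%. The middle block held 39.2% to 41.6% against 39.7% to 41.6%.

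At 3 h the proximal share was 28.7% to 34.1% in Cre-only and 36.4% to 41.0% in Runx1 c-k/o cells, and the distal share 28.1% to 29.9% against 20.5% to 22.2%. Neither share overlapped between genotypes at either time. The median log2 fold change between genotypes went from 0.25 in the proximal block over -0.15 in the middle block to -0.46 in the distal block at rest, and from 0.04 over -0.35 to -0.64 at 3 h. Without Ighv7-1 and Ighv2-9, 2 proximal genes with large changes, the proximal share was still 25.1% to 27.5% in Cre-only and 29.0% to 32.0% in Runx1 c-k/o cells at rest.

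No such gradient was seen in the kappa locus, where the median was 0.35, 0.41 and 0.38 from the proximal to the distal block at rest and 0.30, 0.30 and 0.27 at 3 h. On activation the distal kappa block, which holds Igkv1-135 and Igkv1-117, gained share instead: it went from 46.4% ± 0.691 to 53.4% ± 0.429 in Cre-only cells and from 46.7% ± 1.17 to 55.0% ± 0.967 in Runx1 c-k/o cells.

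**Figure D3:**
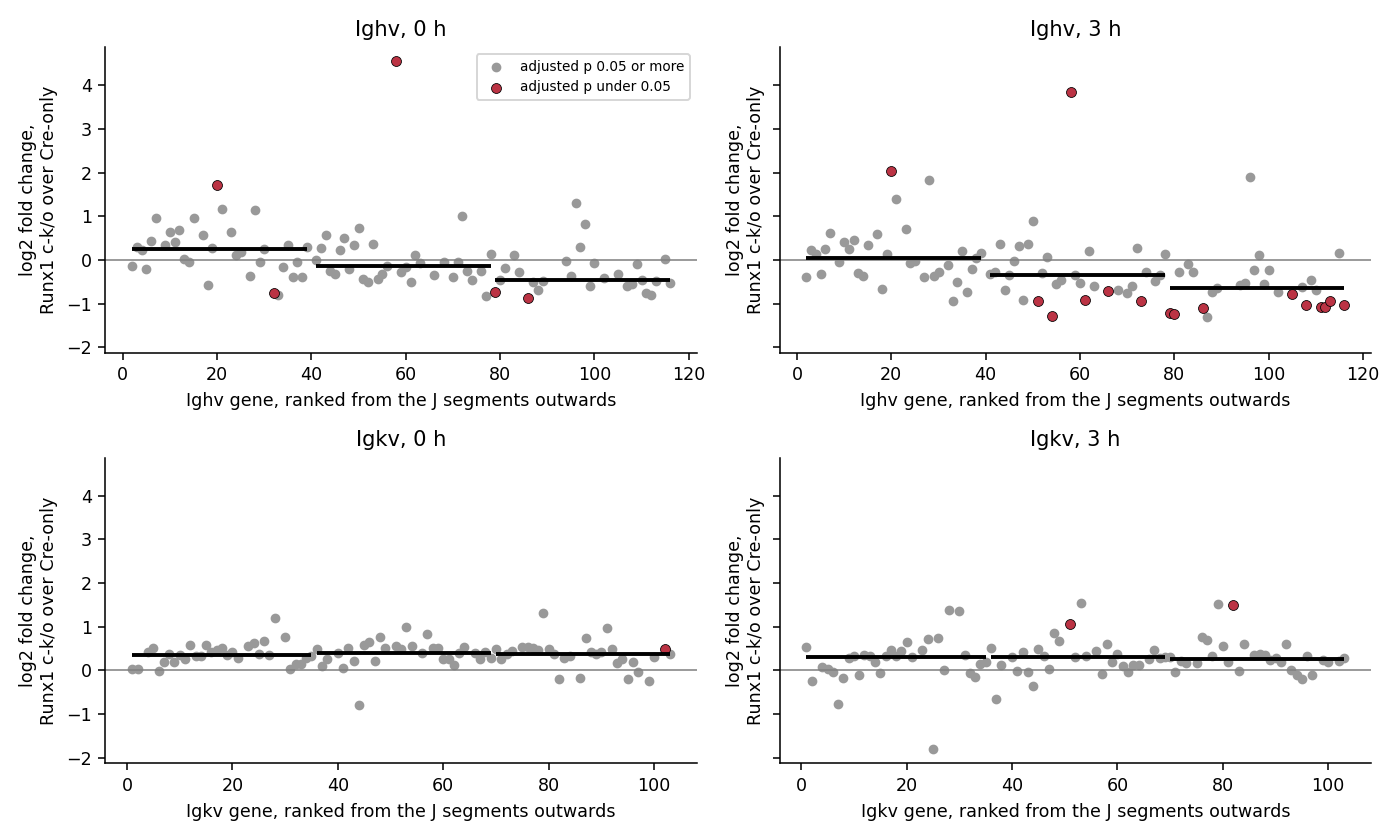
Log2 fold change of Runx1 c-k/o over Cre-only for each tested Ighv (top) and Igkv (bottom) gene at 0 h (left) and 3 h (right), against its rank from the J segments outwards. Red points passed the edgeR test at an adjusted p under 0.05, black lines are medians of each block: they step down from 0.25 to -0.46 in Ighv at rest and are level in Igkv.

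Family and position overlap in this locus: all 45 tested Ighv1 genes lay in the middle and distal blocks. Within the Ighv1 family the median at rest was -0.20 over 21 middle genes and -0.47 over 24 distal genes, and at 3 h -0.52 and -0.67. In the other families it was 0.13 over 11 middle genes and -0.07 over 3 distal genes at rest, and -0.29 and -0.23 at 3 h. The Ighv1 family held 53.1% ± 1.32 of heavy chain counts in resting Cre-only cells, against 45.6% ± 2.92 with Runx1 deleted, and 48.7% ± 2.31 against 38.7% ± 3.09 at 3 h. Families with most or all members in the proximal block differed in direction. Ighv2 held 5.23% ± 0.439 against 7.82% ± 1.11 at rest and 5.92% ± 0.448 against 9.12% ± 0.599 at 3 h, and Ighv5 held 8.95% ± 0.355 against 10.7% ± 0.332 at rest. Ighv9, with 3 of 4 genes in the proximal block, was lower instead, with 5.74% ± 0.183 against 5.29% ± 0.0794 at rest and 6.15% ± 0.347 against 5.38% ± 0.429 at 3 h, without overlap. Ighv7 held 2.93% ± 1.07 against 5.16% ± 1.70 at rest, which overlapped. In the kappa locus the largest family, Igkv1, held 17.4% ± 0.940 against 17.7% ± 0.814 of kappa counts at rest.

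**Figure D4:**
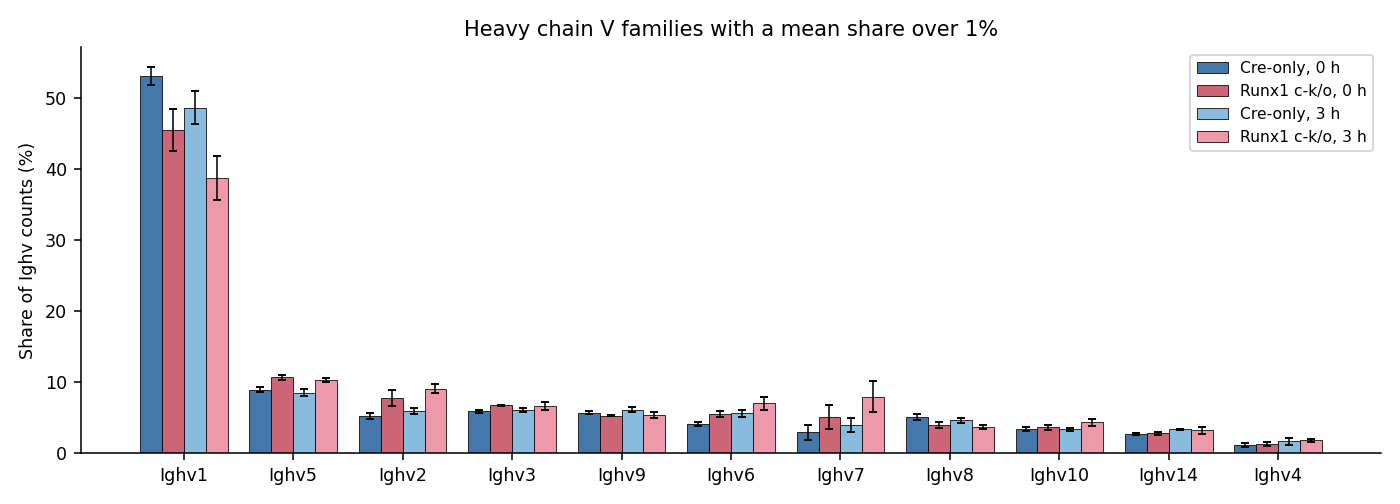
Share of heavy chain counts in percent held by each Ighv family with a mean share over 1%, in the 4 groups (bars are means, error bars SD, n = 3). At both times the Ighv1 bar of Runx1 c-k/o cells is the lower one, and the Ighv2 and Ighv5 bars are higher.

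The median spread between replicates was larger over V genes than over all tested genes, which were not matched to them for level. The median biological coefficient of variation estimated by edgeR was 0.151 over 187 V genes and 0.126 over all 13538 genes tested, and 68 V genes (36.4%) lay above the upper quartile of all genes. The 5 V genes with the largest within-group SD of log2 CPM, among those with a mean of at least 10 CPM, were Ighv7-1, Igkv15-103, Igkv14-126, Igkv8-30 and Ighv6-6.

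Part of this spread was shared by heavy and light chain genes. Ighv11-2 and Igkv14-126 form the heavy and light chain of a well known B-1 cell receptor that binds phosphatidylcholine. Ighv11-2 was at 3.04, 4.27 and 8.18 CPM in replicates 1, 2 and 3 of resting Cre-only cells and at 2.69, 4.40 and 7.76 CPM in resting Runx1 c-k/o cells. Igkv14-126 was at 12.1, 19.3 and 27.0 CPM and at 15.8, 25.2 and 29.1 CPM in the same libraries.

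At 3 h Ighv11-2 was at 0.99, 3.2 and 5.99 CPM in Cre-only and at 1.29, 2.95 and 3.42 CPM in Runx1 c-k/o cells. Igkv14-126 was at 4.40, 8.69 and 16.4 CPM and at 6.57, 8.46 and 12 CPM. Both genes ordered the 3 samples alike in all 4 groups, with replicate 1 lowest and replicate 3 highest, and of 95 tested light chain V genes only Igkv14-126 matched the order of Ighv11-2 in all 4 groups. Same-numbered samples at rest and 3 h deviated alike over V genes, as described below, so the orders in the 4 groups are not independent. Neither gene passed the test between genotypes at rest (edgeR adjusted p = 0.978 and 0.813).

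Ighv7-1 and Igkv7-33, which pair in the T15 type of phosphorylcholine antibody, also varied together. Ighv7-1 was at 10.02, 11.8 and 25.7 CPM in resting Cre-only cells and at 16.8, 49.6 and 39.2 CPM in resting Runx1 c-k/o cells. Igkv7-33 was at 2.36, 1.65 and 3.84 CPM and at 3.40, 8.60 and 6.11 CPM. They had the same order of samples in 3 of 4 groups, as did 6 other light chain genes, and Igkv4-86 and Igkv8-30 followed the order of Ighv7-1 in all 4.

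Igkv15-103 was at 23.2, 23.6 and 41.3 CPM in resting Cre-only and at 38.1, 109 and 71.9 CPM in resting Runx1 c-k/o cells. Replicate 3 of Cre-only and replicates 2 and 3 of Runx1 c-k/o were high in all 3 of these genes. The genotype difference at rest was 1.16 for Ighv7-1, 1.21 for Igkv7-33 and 1.32 for Igkv15-103 on the log2 scale, and with edgeR adjusted p = 0.475, 0.306 and 0.240 none passed the test. These genes were named after their values were seen, apart from those of the list of largest spread.

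**Figure D5:**
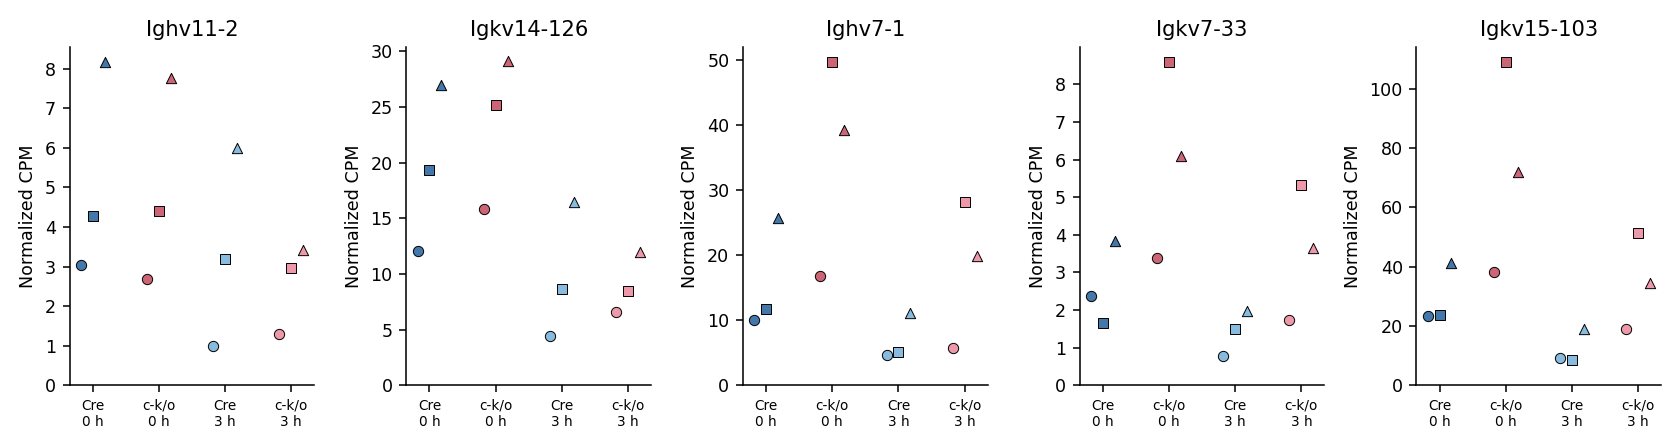
Normalized CPM of 5 V genes with a large spread between replicates, in each of the 12 samples (circle, square and triangle for replicates 1, 2 and 3). Ighv11-2 and Igkv14-126 show the same order of samples in every group, and Ighv7-1, Igkv7-33 and Igkv15-103 are highest in replicate 2 of both Runx1 c-k/o groups.

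The V genes also tied resting and activated samples of the same number together. Over 187 V genes, the deviations of a resting sample from its group mean correlated with those of the same-numbered 3 h sample with r = 0.28 to 0.51 in Cre-only and 0.30 to 0.47 in Runx1 c-k/o cells, and with those of other numbers with r = -0.44 to -0.00 and -0.41 to 0.06. Over all 13538 tested genes the same-number correlations were 0.17 to 0.31 in Cre-only cells and -0.32 to 0.33 in Runx1 c-k/o cells. In Runx1 c-k/o cells each resting sample thus resembled its own number best over V genes, 3 of 3, and 0 of 3 did so over all genes. These are correlations across genes, which are not independent replicates.

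Markers of cell types and the factors of the locus were read in the same libraries. Of the 11 tested octamer and enhancer factors, 10 tested recombination and mutation genes, 7 marginal zone and 7 myeloid markers, none passed the test between genotypes at either time. Of 7 tested plasma cell markers, Sdc1 was lower in Runx1 c-k/o cells at rest (log2 fold change -1.35, edgeR adjusted p = 0.00157), and of 6 B-1 cell markers Spn was higher at 3 h (0.73, edgeR adjusted p = 0.0201). The summed marginal zone markers were at 1305 to 1613 CPM in Cre-only and 1818 to 1969 CPM in Runx1 c-k/o cells at rest, without overlap, and at 2430 to 2706 and 2729 to 3424 CPM at 3 h. Most of the sum at rest was Cr2, the complement receptor CD21, with 818 to 1075 CPM in Cre-only and 1225 to 1411 CPM in Runx1 c-k/o cells. The median log2 fold change at rest over the 7 marginal zone markers was 0.47, while Dtx1 and Plxnd1 had -0.12 and -0.18.

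The B-1 cell markers summed to 134 to 138 CPM in Cre-only and 132 to 205 CPM in Runx1 c-k/o cells at rest, and the plasma cell markers to 1704 to 1813 and 1711 to 1878 CPM. Irf4, a factor that mature B cells express too, made up most of the plasma cell sum, with 1270 to 1470 CPM at rest. Of the others, Igj, the J chain gene, was at 100, 110 and 165 CPM in Cre-only and 73.3, 262 and 176 CPM in Runx1 c-k/o cells, the sample order of Ighv7-1, an order that Sdc1, Prdm1 and Mzb1 did not have in both genotypes. The part of such cells in the V gene differences was not tested. Summed erythroid markers ranged from 49.9 to 346 CPM in Cre-only and from 325 to 544 CPM in Runx1 c-k/o cells at rest, T cell markers from 37.3 to 43.8 and from 31.3 to 44.0 CPM, and NK cell markers from 9.74 to 13.8 and from 9.44 to 10.9 CPM. Summed B cell markers were at 9360 to 9609 and 9872 to 10327 CPM at rest.

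The targeted gene did not show the deletion at the level of whole-gene counts. Runx1 was at 83.6, 81.8 and 86.7 CPM in resting Cre-only and at 101, 95.7 and 103 CPM in resting Runx1 c-k/o cells, a log2 fold change of 0.25 (edgeR adjusted p = 0.548). Its level at 3 h was 38.5, 37.0 and 34.9 CPM against 47.3, 70.6 and 74.5 CPM (log2 fold change 0.80, edgeR adjusted p = 0.00769). Only exon 4 is removed, so gene counts do not check the labels.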

How the data were processed

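The authors isolated RNA from splenic B cells of both genotypes at 0 h and 3 h, sequenced poly(A) libraries as paired ends, aligned reads to mm9 with TopHat2 2.0.11 after CASAVA 1.8.4 and counted reads per Ensembl gene with featureCounts. The deposited values are raw counts per gene; strand setting and treatment of reads that fit several genes are not given in the sources used here. Members, gene lists and position blocks were chosen with earlier results of these data known. Symbols came from GENCODE (786 of 37991 identifiers had none) and RefSeq synonyms, and sequences from mm9.

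All 12 samples were fitted together in edgeR 4.0.16 (R 4.3.3; TMM factors, filterByExpr with a minimum count of 10, quasi-likelihood test, Benjamini-Hochberg adjustment over 13538 genes, threshold 0.05). Limma 3.58.1 was loaded with it, and DESeq2 1.42.0 was an alternative. On simulated data for the comparison at rest, 144 of 200 genes changed 2-fold were recovered and 9 unchanged genes were called. Summed levels and effective numbers were tested by two-sided exact permutation, 3 against 3. Library totals were 14442251 to 23641552, so the floor of 3 counts was 0.127 to 0.208 CPM. Replicates are described as biological. Named genes were, per comparison, the 5 higher and 5 lower with the smallest adjusted p among those past the threshold, the 5 most used Ighv and Igkv genes, every Iglv gene, and the 5 with the largest within-group SD of log2 CPM (pseudocount 0.5) at a mean of 10 CPM or more.

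Same-numbered samples were checked for pairing by the correlation of deviations from group means over all tested genes. It was over 0.1 for every pair of Cre-only samples at rest and 3 h (0.17 to 0.31), and not in Runx1 c-k/o cells (-0.32 to 0.33) or between genotypes (-0.01 to 0.10 at rest). The reported fit has no replicate block, since the study's methods name none, and the block was an alternative.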

Additional observations from a re-analysis of the deposited data

How the results depend on the processing

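The falls of V genes on activation kept their direction and a count within 1.5 times of the reported one under every alternative but the limit to GENCODE symbols (133 to 191 lower, 0 higher). The genotype calls were less stable. At rest, 3 higher and 3 lower became 8 and 5 with the DESeq2 Wald test, 7 and 5 with 1 RUVs factor and 5 and 7 with only the groups compared, and 5 were higher with no filter on low counts. At 3 h, 4 higher became 9 with DESeq2, and 14 lower became 2 with only the groups compared. With DESeq2, 1 interaction was called higher. Leaving out 1 library at a time gave 1 to 5 higher and 1 to 2 lower at rest and 2 to 8 higher and 3 to 16 lower at 3 h.

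With a replicate block, the lower calls at 3 h were 8, and the fall on activation, where the numbers pair the Cre-only samples, was called for 183 V genes. Where the numbers pair over V genes and not over all genes, in Runx1 c-k/o cells, Ighv7-1, Ighv11-2 and Igkv7-33 passed with the block too (edgeR adjusted p = 0.000289, 0.0130 and 0.0171). Among the called counts no other moved by over 1.5 times. Paired differences of summed levels allow no p under 0.25, so they say nothing on stability.

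Limited to the 140 genes with a GENCODE symbol (120 tested, an alternative added after seeing the data), the calls were 1 higher and 0 lower at rest and 2 and 4 at 3 h. On activation 117 and 116 were lower. Over all 187 tested genes the calls were 3 and 3 at rest, 4 and 14 at 3 h, and 180 and 182 lower on activation. Of the 82 genes left out 79 were Ighv, so most lower calls between genotypes rest on the synonym mapping.

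Set against constant region counts, summed levels turned sign for Igkv between genotypes (-0.063 at rest, -0.19 at 3 h on the log2 scale), for Iglv at rest (-0.046), for Igkv on activation in Cre-only cells (0.11) and for Iglv on activation (0.79 in Cre-only, 0.64 in Runx1 c-k/o cells). The summed Iglv difference at 3 h, -0.05, ranged from -0.19 to 0.13 when 1 library was left out. The effective number of Ighv genes at 3 h, 0.12 higher in Runx1 c-k/o cells, became -0.18 over genes that passed the filter and -0.36 to 0.67 when 1 library was left out, and its change on activation in Cre-only cells became 0.26 in thinned counts. The cause of these was not tested. V genes with few counts, such as Ighv1-14, limit what depth can show.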
